A study of Mus musculus with 9 samples.

Results

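Kruppel-like factors (KLFs) are transcription factors that bind CACCC-type and GC-rich DNA through zinc fingers at the C-terminal end of the protein. The genes described here are 8 of them: Klf2, Klf3, Klf4, Klf6, Klf7, Klf9, Klf10 and Klf13. All probe sets annotated to these symbols were taken, which gave 30 probe sets, and none of the 30 carried a further symbol. The platform annotation gave a single symbol to probe sets of 18193 genes. In lymphocytes, KLF2 holds resting cells in quiescence and drives migration genes, and KLF4 is known as a FOXO target that restrains B cell division. KLF3 is a repressor that shapes the marginal zone and follicular B cell pools.

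Transcript levels were measured on Affymetrix mouse expression arrays in germinal center (GC) B cells, which proliferate in lymphoid follicles while their antibody genes undergo mutation. The 10-week-old mice had been injected repeatedly with sheep red blood cells, and GC B cells (B220hi, CD95hi, PNAhi) were sorted from spleen on day 12. Every animal of the 3 groups carried Cg1-Cre, a recombinase driven from the IgG1 constant region locus in activated B cells. WT animals were FOXO1+/+, HET animals FOXO1f/+ with 1 floxed allele, and KO animals FOXO1f/f with 2 floxed alleles. Each group had 3 arrays. The labels give 1 animal per array, while the series' design text mentions pooled spleen cells. A cell in which the Cre was not active keeps its floxed alleles. The brightest Foxo1 probe set had a mean of 5449 ± 159 on WT arrays, 3564 ± 77.9 on HET arrays and 1034 ± 335 on KO arrays (SD, n = 3), so that 19.0% of the WT signal was left in KO. Whether that probe set lies in the deleted segment was not analysed here.

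Median signals per array lay between 42.9 and 45.0 in WT and HET and between 47.4 and 48.0 in KO, and a probe set under its array's median is called dim below. Summed signals of the 4 B cell markers measured overlapped in the 3 groups (28572 to 30999 over all arrays), and those of 6 GC B cell markers ran from 29968 to 33350 in WT, 31142 to 32579 in HET and 27426 to 28489 in KO. Of these 6 GC genes, 1 was called higher in KO vs WT (Fas 0.30), 2 lower (Gcsam -1.36 and Neil1 -0.42) and 3 not. The 3 not called were Bcl6 (0.043), S1pr2 (0.036) and Mybl1 (-0.15). For comparison with these marker counts, 6.1% of all genes were called higher and 5.83% lower in KO vs WT. Marginal zone markers (5 of 5 called higher in KO vs WT) summed to 7467 to 7505 in WT, 7438 to 8166 in HET and 11678 to 13931 in KO. Plasma cell markers (4 of 5 higher) summed to 9672 to 10378, 10482 to 11397 and 15335 to 17166. Myeloid markers (3 of 6 tested higher) summed to 494 to 974, 643 to 1413 and 1083 to 1379, with Itgam, Cd14 and Csf3r dim on every array. This myeloid count fell to 1 without WT replicate 2, WT replicate 3 or KO replicate 1 and with eBayes without trend, where the Csf1r and Lyz2 calls were lost. Csf1r lost its call in 11 of 22 alternatives in all, while the third gene, Cd68 (0.67, SE 0.13, limma adjusted p = 0.0058), kept its call in all 22. Of the endothelial and stromal genes Cdh5, Kdr, Tek and Col1a1 were dim on every array, and 0 of the 2 tested were called (Pecam1 0.44, limma adjusted p = 0.0781, and Pdgfrb -0.019). Of the T cell genes Cd3d, Cd3g, Cd4 and Trat1 were dim on every array, and 0 of the 2 tested were called (Lat -0.73, limma adjusted p = 0.0593, and Cd8a 0.37), while 1 passed in 6 of 22 alternatives. Of the 2 tested dendritic cell genes 0 were called (Zbtb46 0.90, limma adjusted p = 0.0520, and Flt3 -0.088), while 1 passed in 5 of 22 alternatives. The GC, marginal zone and plasma cell sums did not overlap between KO and the other groups, and up to 3 myeloid markers were higher in KO. They moved with the Klf changes given below, and their part in those changes was not tested. In sorted bulk samples, more cells of a type and more RNA per cell cannot be told apart.

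KO vs WT compares cells from animals with both Foxo1 alleles floxed with cells from animals with none. Of the 8 Klf genes, Klf3 and Klf9 rose and the other 6 did not pass the test. Klf6 and Klf13 had values below 0, the other 6 values above 0 (52.3% of all genes), and 0 of the 8 genes passed as lower. The KO mean of Klf3 was 202% of the WT mean, and that of Klf9 169.9%. Values are MAS5 signals on a linear scale, and changes are differences of log2(signal + 2.09), which understate the change of dim genes. Each gene was represented by its brightest kept probe set, and a call is a Benjamini-Hochberg adjusted p under 0.05 from limma over all 10331 genes tested. In the same comparison 11.9% of all genes were called, 6.1% higher and 5.83% lower, against 2 of 8 members. The median log2 change of the 8 members was 0.32, against 0.011 over all genes. In 4 members (Klf3, Klf4, Klf7 and Klf9) all 3 KO arrays lay above all 3 WT arrays, as in 16.2% of all genes. The members were named with earlier results of these data known, so these counts and the median of the members are a description.

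**Figure D1:**
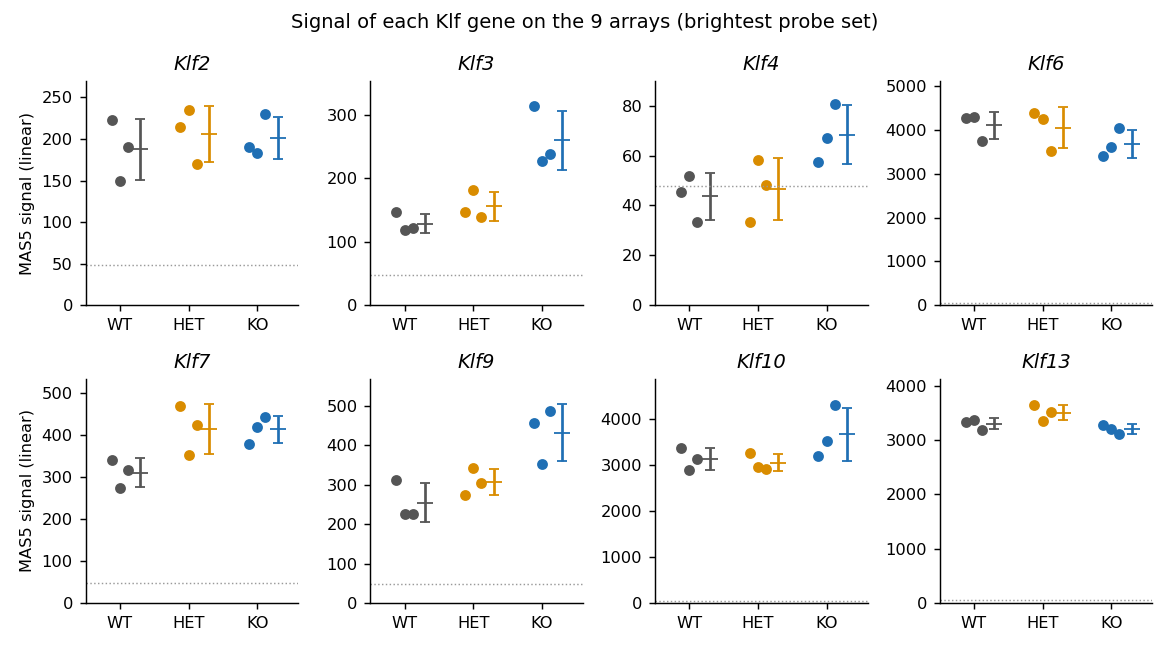
MAS5 signal (linear scale, from 0) of the probe set that represents each Klf gene, with 1 point per array in WT, HET and KO and the mean and SD (n = 3) beside the points. The dotted line marks the highest array median (48.0). The KO points of Klf3 lie between 228 and 314, above every WT and HET point, while those of Klf2, Klf6 and Klf10 overlap both other groups.

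Klf3 encodes a repressor that recruits the CtBP corepressors. Its signal was 146, 119 and 122 on the WT arrays, 148, 182 and 139 on the HET arrays and 314, 228 and 238 on the KO arrays. Every KO array thus exceeded every WT and every HET array, and WT and HET overlapped. The change in KO vs WT was 0.99 on the log2 scale (SE 0.18, limma adjusted p = 0.00284), and in KO vs HET 0.72 (SE 0.18, limma adjusted p = 0.0228). The HET vs WT value was 0.27 with a 95% interval from -0.11 to 0.65 (limma adjusted p = 0.998). The KO vs WT call held in all 22 alternative analyses, with log2 changes from 0.85 to 1.09. The KO vs HET call was lost without KO replicate 1 (0.58, limma adjusted p = 0.0867), HET replicate 1 (0.69, limma adjusted p = 0.0690) or HET replicate 3 (0.65, limma adjusted p = 0.0812), and under quantile normalization (0.62, limma adjusted p = 0.0510). These values come from 1 probe set, 1454666_at. The other 6 Klf3 probe sets were dim on all 9 arrays, with signals between 2.04 and 42.9, and were not tested.

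Klf9 encodes a repressor known from hormone-responsive tissues and from human B cells, where naive cells hold more of it than memory cells. Its signal was 311, 225 and 227 in WT, 275, 342 and 305 in HET and 458, 352 and 489 in KO. The lowest KO array lay just above the highest HET array, and WT and HET overlapped. The change in KO vs WT was 0.76 (SE 0.16, limma adjusted p = 0.00946). In KO vs HET it was 0.48 (SE 0.16) and did not pass (limma adjusted p = 0.0909). It passed with a block on high or low Xist signal (0.57, limma adjusted p = 0.0409), with the mean of probe sets (0.65, limma adjusted p = 0.0425) and without KO replicate 2 (0.63, limma adjusted p = 0.0477). In HET vs WT it was 0.28 (95% interval -0.077 to 0.63, limma adjusted p = 0.998). The KO vs WT call held in all 22 alternatives (limma adjusted p from 0.0052 to 0.0458).

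Another Klf9 probe set, 1456341_a_at, gave 108, 101 and 58.0 in WT, 87.8, 94.8 and 102 in HET and 202, 167 and 163 in KO. There the KO arrays stood well apart from both other groups, and the HET arrays lay within the range of WT. Adjusted over all 23344 kept probe sets, its KO vs WT change of 1.02 (SE 0.23, limma adjusted p = 0.0184) and its KO vs HET change of 0.89 (SE 0.23, limma adjusted p = 0.0441) both passed. In KO vs HET, 5.58% of all kept probe sets were called. The third tested probe set, 1428289_at, gave 151, 106 and 110 in WT, 110, 81.7 and 86.3 in HET and 177, 91.0 and 161 in KO, with all groups overlapping (KO vs WT 0.18, SE 0.26, limma adjusted p = 0.732). The remaining 4 Klf9 probe sets were dim on all arrays, with signals from 0.461 to 33.3. Among probe sets, 7.65% were called in KO vs WT, against 3 of the 18 kept Klf probe sets. Without WT replicate 3 or without KO replicate 1, the Klf3 probe set alone of these 3 was called. Adjusted over probe sets, the brightest Klf9 probe set, 1428288_at, lost its call in 4 of 20 alternatives. The other losses were without WT replicate 2 (limma adjusted p = 0.0739) and without KO replicate 3 (limma adjusted p = 0.0536).

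**Figure D2:**
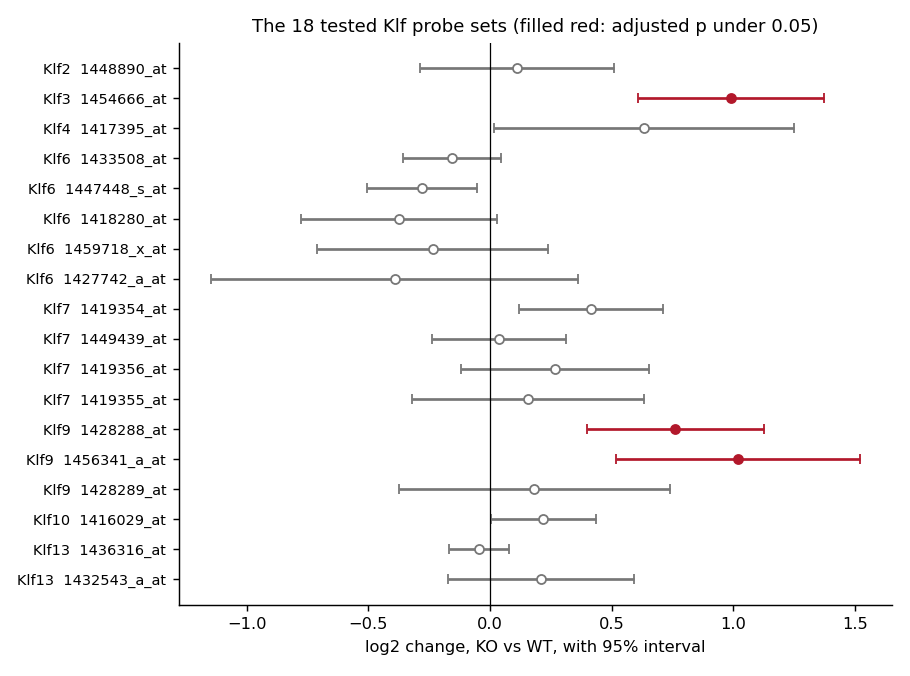
Log2 change in KO vs WT (x axis) of the 18 kept Klf probe sets, brightest first within each gene, with 95% intervals and filled red points where the limma adjusted p over all kept probe sets was under 0.05. Both called Klf9 probe sets and the Klf3 probe set lie to the right, the third Klf9 probe set is at 0.18, and all 5 Klf6 probe sets lie left of 0 without a call.

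The sequences upstream of Klf3 and Klf9, the members that rose, are shown with that of Klf4, whose gene is a reported FOXO1 target. Each holds the 250 bases before the RefSeq gene start in GRCm38.p6, written 5′ to 3′ along the gene. Capitals mark the forkhead core TGTTTA, which FOXO proteins can bind, read on the opposite strand as TAAACA. They also mark the KLF box CACCC, read on the opposite strand as GGGTG. Both strands were searched, and the 4 words may overlap.

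Klf3, chr5:64803271-64803520, + strand: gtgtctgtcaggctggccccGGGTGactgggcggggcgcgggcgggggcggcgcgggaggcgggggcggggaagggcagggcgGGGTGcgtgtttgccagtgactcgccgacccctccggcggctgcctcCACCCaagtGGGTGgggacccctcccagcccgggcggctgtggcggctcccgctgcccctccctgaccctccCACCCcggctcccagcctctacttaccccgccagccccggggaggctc

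Klf9, chr19:23140976-23141225, + strand: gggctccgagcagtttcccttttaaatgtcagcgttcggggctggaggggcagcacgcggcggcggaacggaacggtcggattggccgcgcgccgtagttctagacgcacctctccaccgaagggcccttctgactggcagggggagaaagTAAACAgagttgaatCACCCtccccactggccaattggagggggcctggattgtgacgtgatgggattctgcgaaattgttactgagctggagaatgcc

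Klf4, chr4:55532476-55532725, - strand: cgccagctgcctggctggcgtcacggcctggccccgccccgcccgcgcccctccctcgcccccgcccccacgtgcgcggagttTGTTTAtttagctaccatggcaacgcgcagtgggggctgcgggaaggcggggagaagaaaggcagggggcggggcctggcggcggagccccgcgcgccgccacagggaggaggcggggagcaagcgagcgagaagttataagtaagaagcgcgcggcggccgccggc

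The Klf9 window held 1 forkhead core, whose first base lies 99 bases before the start, and 1 KLF box. The Klf4 window held 1 forkhead core, which begins 167 bases before the start, and no KLF box, and the Klf3 window held 5 KLF boxes and no forkhead core. The table gave an upstream window for 7 of the 8 members, and 2 of these 7 held the forkhead core and 5 the KLF box. Over all 32851 windows of this length, 12.0% held the forkhead core and 52.0% the KLF box. A match describes letters in the window and not a bound site.

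Klf2 and Klf4, the members best known for quiescence and for lymphocyte migration, did not pass in KO vs WT. Klf2 gave 223, 150 and 191 in WT, 215, 235 and 169.5 in HET and 191, 183 and 229.9 in KO. The 3 groups overlapped throughout. Its KO vs WT value was 0.11 (95% interval -0.29 to 0.51, limma adjusted p = 0.764), and it turned to -0.0086 when each array was centred on its median and to -0.041 without WT replicate 2. Klf4 was near the array median, at 45.5, 51.9 and 33.4 in WT, 33.2, 58.2 and 48.3 in HET and 57.3, 67.0 and 80.8 in KO. All KO arrays lay above all WT arrays, but 1 HET array lay above 1 KO array, and 1 WT and 1 HET array were dim. The KO vs WT value of 0.63 (SE 0.29, 95% interval 0.0085 to 1.26) did not pass (limma adjusted p = 0.188). The interval of each gene is not adjusted for the number of genes. The second Klf4 probe set was dim on every array.

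Klf7, a regulator best known from neurons and fat cells, was higher than WT in both HET and KO on its brightest probe set. It gave 340, 272 and 315 in WT, 467, 351 and 423 in HET and 379, 418 and 442 in KO. HET and KO overlapped, and every array of both lay above every WT array. The value was 0.42 in KO vs WT (SE 0.13, limma adjusted p = 0.0642) and 0.41 in HET vs WT (SE 0.13, limma adjusted p = 0.998), and neither passed. Another probe set, 1449439_at, gave 304, 276 and 347 in WT, 349, 374 and 386 in HET and 290.1, 312 and 348 in KO. There the lowest HET array (348.7) lay just above the highest WT (347.1) and KO (347.6) arrays, and KO vs WT was 0.037 (SE 0.13). Adjusted over probe sets, HET vs WT (0.26, limma adjusted p = 0.999) and KO vs HET (-0.22, limma adjusted p = 0.342) did not pass. The other 2 Klf7 probe sets gave 0.27 and 0.16 in KO vs WT, with overlapping groups.

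Klf6, an early response gene induced by wounding and growth signals, was the member whose probe sets all pointed down in KO. The brightest gave 4274, 4296 and 3749 in WT, 4385, 4251 and 3520 in HET and 3405, 3607 and 4042 in KO. The groups overlapped, and KO vs WT was -0.16 (95% interval -0.35 to 0.04, limma adjusted p = 0.307). The 5 probe sets ran from -0.39 to -0.16 and 0 of them passed in limma, while 1 of them, 1447448_s_at (-0.28, SE 0.10), had an unadjusted p of 0.0189. With each array centred on its median, which lowered the median KO vs WT change of all genes to -0.11, the value was -0.28 and passed (limma adjusted p = 0.0490).

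Klf10, a TGF-beta-inducible repressor, gave 3380, 2904 and 3126 in WT, 3278, 2970 and 2926 in HET and 3198, 3518 and 4310 in KO. KO replicate 3 was the highest array, and KO overlapped both other groups. The KO vs WT value was 0.22 (SE 0.098, limma adjusted p = 0.179). Klf13, known for late induction of the chemokine gene Ccl5 in T cells, had the smallest SE of the 8 members in this fit, with 3343, 3375 and 3196 in WT, 3641, 3358 and 3517 in HET and 3289, 3202 and 3112 in KO. Its KO vs WT value was -0.046 (95% interval -0.17 to 0.074, limma adjusted p = 0.661). All KO arrays lay below all HET arrays, with a KO vs HET value of -0.13 (SE 0.055, limma adjusted p = 0.176). A weaker Klf13 probe set, 1432543_a_at, pointed the other way in KO vs WT (0.21, SE 0.18, limma adjusted p = 0.527).

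**Figure D3:**
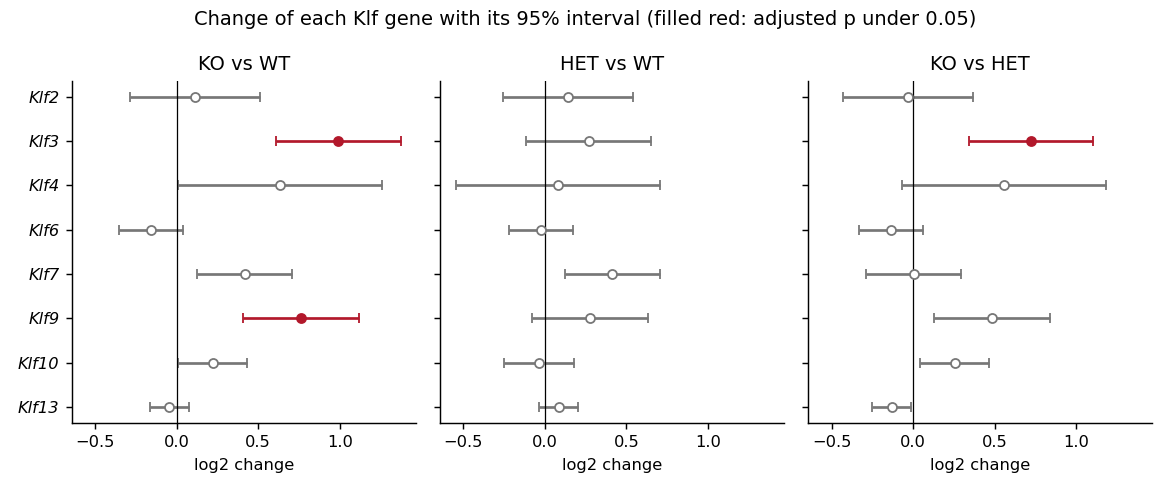
Log2 change (x axis) of the 8 Klf genes in KO vs WT, HET vs WT and KO vs HET with 95% intervals, and filled red points where the limma adjusted p over all genes was under 0.05. Klf3 and Klf9 are called in KO vs WT, no gene in HET vs WT and Klf3 in KO vs HET.

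HET vs WT asks whether a single floxed allele shifts these genes. Limma called 0 of 8 members, and 1 of 8, Klf7, had an unadjusted p under 0.05. Over all genes 0.00968% were called and 4.18% had an unadjusted p under 0.05. Foxo1 itself, with a HET mean at 65.4% of the WT mean, was not called (limma adjusted p = 0.919). A missing call in this comparison therefore does not show that a gene is unshifted. Klf7 was also the 1 member with every HET array above every WT array, as in 4.95% of all genes. The other 7 members overlapped.

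KO vs HET, which shares its KO arrays with KO vs WT, asks what the second floxed allele adds. Klf3 was the 1 of 8 members called, against 8.99% of all genes called (4.56% higher and 4.43% lower). The all-gene count of 929 fell to 543 without HET replicate 2 and to 606 without HET replicate 3. Klf3 and Klf9 had every KO array above every HET array, as in 14.5% of all genes, and Klf13 every KO array below, as in 13.1%. Limma called a distance of the HET mean from the WT-KO midpoint in 0 of 8 members, against 0.997% of all genes. That all-gene count of 103 fell to 31 to 50 without WT replicate 2 or without any 1 HET replicate. An unadjusted p under 0.05 was found for 1 member, Klf13 (0.11, SE 0.048), and for 10.8% of all genes. The HET means of Klf3 and Klf9 lay 0.23 (SE 0.15) and 0.10 (SE 0.14) below the midpoint on the log2 scale, and neither departure passed (limma adjusted p = 0.653 and 0.873).

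Other genes of the KLF and Sp family did not pass, although without KO replicate 3 there was 1 call in each of the other Klf and Sp lists. Of the other Klf genes, 8 had a probe set with 1 symbol, and 3 were bright enough to be tested. In limma 0 of these 3 passed in KO vs WT and 0 had an unadjusted p under 0.05, which 25.7% of all genes had. Of 3 tested Sp genes 0 passed, and 1, Sp1, had an unadjusted p under 0.05 (0.15, SE 0.066, limma adjusted p = 0.159). Of 12 genes for KLF partners and turnover, such as the CtBP and SIN3 corepressors, 0 passed and 2 had an unadjusted p under 0.05. With each array centred on its median, 4 of these 12 passed, in a setting that called 20.1% of all genes. The partner of KLF3, Ctbp2, had a WT mean of 477 ± 70.3 and a KO mean of 576 ± 53.4 (SD, n = 3; log2 value 0.27, limma adjusted p = 0.183).

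Genes linked to KLF2 in migration and B cell subsets moved both ways. Of 8 tested, 3 rose, 2 fell and 3 did not pass in KO vs WT, with a median of 0.33, and in KO vs HET 2 rose and 2 fell. Over all genes, 6.1% were called higher and 5.83% lower in KO vs WT, and 8.99% were called in KO vs HET. Cr2, which encodes the complement receptor CD21 of marginal zone B cells, gave 2858, 3015 and 2748 in WT and 5105, 4524 and 4740 in KO (change 0.74, SE 0.071, limma adjusted p = 3.26e-05). The same Cr2 probe set is also counted among the marginal zone markers above, so the 2 lists are not independent. Cxcr5, the follicle homing receptor, rose by 0.39 (SE 0.065), and the integrin gene Itga4 by 0.39 (SE 0.097, limma adjusted p = 0.0210). The sphingosine phosphate receptor gene S1pr4 gave 432, 464 and 384 in WT and 215, 196 and 287 in KO and fell by 0.88 (SE 0.14, limma adjusted p = 0.00175). Fcer2a, which encodes CD23, fell by 0.76 (SE 0.070). All KO arrays lay above all WT arrays for Cr2, Cxcr5 and Itga4, and below them for S1pr4 and Fcer2a (16.2% and 13.5% of all genes). S1pr1, the best known KLF2 target for exit from lymphoid organs, was near the array median, with a WT mean of 33.2 ± 12.9 and a KO mean of 51.3 ± 16.7 (SD, n = 3; log2 value 0.62, limma adjusted p = 0.294).

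The MEKK, ERK5 and MEF2 genes, known upstream of Klf2 and Klf4, gave 1 rise among 11, a share near the 11.9% of all genes called. Mef2d, a MEF2 factor, rose by 0.26 (SE 0.069, limma adjusted p = 0.0253), from a WT mean of 1512 ± 44.9 to a KO mean of 1818 ± 124 (SD, n = 3). That call was lost without any 1 of the WT replicates or without KO replicate 1 or 2 (limma adjusted p from 0.0524 to 0.0929), with the mean of its probe sets (0.077, limma adjusted p = 0.540) and with each array centred on its median (0.14, limma adjusted p = 0.190). Of 8 cell cycle genes linked to KLF2, KLF4 or KLF6, 1 rose and 1 fell, with 11.9% of all genes called. Cdkn1a, which encodes the inhibitor p21, gave 176, 166 and 191 in WT and 337, 296 and 557 in KO and rose by 1.09 (SE 0.23, limma adjusted p = 0.00862). Cdkn1b, which encodes p27, fell by 0.49 (SE 0.099, limma adjusted p = 0.00677). Without KO replicate 3, 4 of these 8 genes were called, and 10.9% of all genes.

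Of 10 TGF-beta genes linked to KLF10, 1 rose and 2 fell in KO vs WT, with a median of -0.086 and 11.9% of all genes called. With each array centred on its median, 6 of the 10 were called, in a setting that called 20.1% of all genes. The receptor gene Tgfbr1 gave 4133, 4258 and 3719 in WT and 1934, 2322 and 2238 in KO and fell by 0.90 (SE 0.077, limma adjusted p = 1.47e-05). Ski, a brake on SMAD signaling, rose from 131 ± 10.1 to 223 ± 20.3 (SD, n = 3; change 0.75, limma adjusted p = 0.0075). The fall of Tgfbr2 by 0.21 (SE 0.062, limma adjusted p = 0.0495) was lost in 12 of 22 alternatives, 8 of which left out 1 array (limma adjusted p from 0.00482 to 0.150 over all 22).

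**Figure D4:**
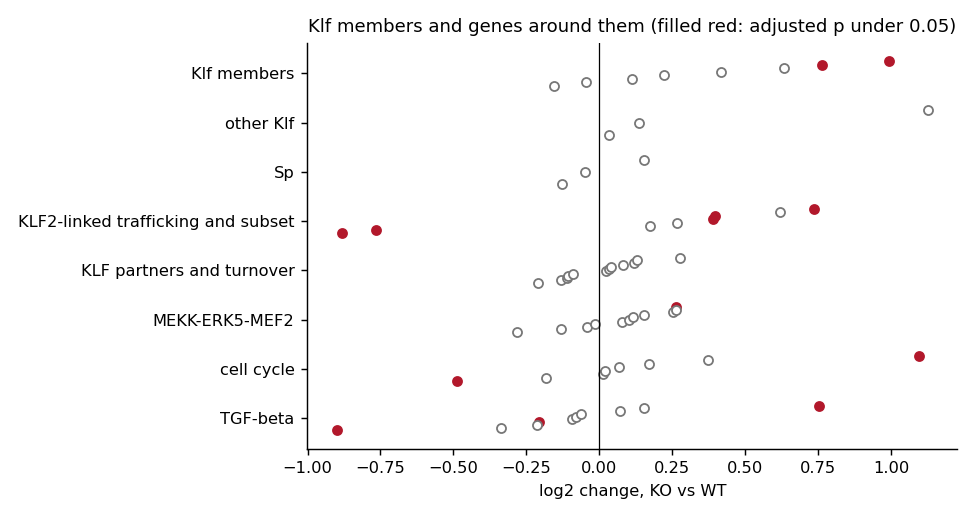
Log2 change in KO vs WT (x axis) of the 8 Klf members and of the tested genes of 7 related lists, 1 point per gene, filled red where the limma adjusted p over all genes was under 0.05. The vertical offset within a row only separates points. Points of the trafficking list lie on both sides of 0, from Fcer2a and S1pr4 on the left to Cr2 on the right.

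The genes whose log2 signals over the 9 arrays followed Klf3 most closely by Pearson correlation were Morrbid (r = 0.98), Cntn2 (r = 0.97) and Prkce (r = 0.97). For Klf9 they were Mest (r = 0.98), Klhl14 (r = 0.98) and Chsy1 (r = 0.95). These are the highest of 10331 values over arrays that share 3 genotypes, so a gene that differs between genotypes in the same direction scores high, and they are given as a description.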

How the data were processed

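The deposited table holds 1 MAS5 signal (intensity, linear scale) per probe set and array. Per the submitters' processing notes the authors used MAS5, in a version not given in the sources used here, and the deposited intensity values have a trimmed mean of 500 on every array (2% trimmed at each end). MAS5 scales arrays to a common mean and does not align their distributions. Of 45101 probe sets, 64 were controls, 34945 had 1 gene symbol in the platform annotation, 932 several and 9160 none.

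Signals were taken as log2(signal + 2.09), the offset being the 10th percentile of all signals. Probe sets at or above their array's median on at least 3 of 9 arrays were kept (23344, of which 19479 had 1 symbol), and for each of 10331 genes the kept probe set of highest mean stood for the gene. Of the 30 Klf probe sets, 18 were kept. A model with the 3 genotypes over all 9 arrays was fitted with limma 3.58.1 (lmFit, eBayes with trend) in R 4.3.3, two-sided, with Benjamini-Hochberg adjustment over all genes, or over all kept probe sets where single probe sets are tested. All adjusted p-values here are limma's. The model was also run on simulated data with independent noise for each probe set and no shift of whole arrays. That run therefore does not cover the higher array medians of KO. With 3 arrays per group the number of arrays limits the precision, and p-values measure the spread between these arrays, whose RNA may be from single animals or pools. Array numbers within a group follow accession order and pair nothing. The labels used here give no sex, and Xist, expressed from the inactive X chromosome of females, was high on 2 of 3 WT, 1 of 3 HET and 2 of 3 KO arrays, so a fit with high or low Xist as a block was 1 alternative.

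The members, the gene lists and the alternatives were chosen with earlier results of these data known. Genes are named by this rule: all members, other Klf and Sp genes by counts, with values where called in KO vs WT, from each other list up to 4 genes with the smallest adjusted p in KO vs WT, and for each called member the 3 genes with the highest correlation. Itga4, S1pr1, Klf12, Sp1, Xbp1, Bcl6 and S1pr2 fall outside this rule and were named after their values were seen. Upstream sequences are from RefSeq (GRCm38.p6), matched by symbol, and no coordinates of probe sets were used.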

Additional observations from a re-analysis of the deposited data

How the results depend on the processing

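Over 22 alternatives, the KO vs WT calls of Klf3 and Klf9 held in all 22, and 2 to 3 members were called. Single-member values kept their direction and their side of the threshold in 172 of 176 KO vs WT, 169 of 176 HET vs WT, 155 of 176 KO vs HET and 164 of 168 midpoint results. Values are log2 changes, and all reversals concerned values that were not called. In KO vs WT, they were Klf13 at 0.082 with the mean of probe sets and Klf2 at -0.0086 with arrays centred on their medians and, over the fits without 1 array, -0.041 (WT replicate 2) to 0.24. In HET vs WT, leaving out 1 array gave Klf10 -0.090 to 0.020, Klf2 -0.010 to 0.28, Klf4 -0.094 to 0.29 and Klf6 -0.087 to 0.075. In KO vs HET, Klf2 turned to 0.091 with the block on Xist and ran from -0.16 to 0.070 without 1 array. Klf7 turned to -0.066 (quantile normalization), -0.094 (median centring), -0.081 (mean of probe sets) and -0.11 to 0.096 (without 1 array), and Klf13 to 0.0017 with the mean of probe sets. For the midpoint, Klf2 turned to -0.035 (Xist block) and -0.014 to 0.22 (without 1 array), and Klf6 to -0.010 (Xist block) and -0.0049 to 0.15 (without 1 array).

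The KO vs HET count of 1 became 0 under quantile normalization, 2 with median centring (Klf3 and Klf13), 2 with the mean of probe sets (Klf3 and Klf9) and 3 with the block on Xist (Klf3, Klf9 and Klf10), and 0 to 2 when 1 array was left out. The 3 called Klf probe sets in KO vs WT became 1 to 3 when 1 array was left out. Over all genes, the 1232 KO vs WT calls became 770 without WT replicate 2, 768 without WT replicate 3 and 2080 with median centring, where 397 were higher and 1683 lower against 630 and 602. Median centring moved the median change of all genes from 0.011 to -0.11. The 929 KO vs HET calls became 543 to 606 without HET replicate 2 or 3. The cause of these shifts was not tested. Pseudocounts of 1 and 32, both filters, the eBayes options, array weights and the fit of only the 2 groups compared changed no count of members beyond those given. No paired analysis was possible because no replicate number is shared between genotypes in the labels. Members near the array median, such as Klf4, are limited by their low signal over background.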

Other observations

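Klf12, a repressor of the same family singled out after its values were seen, differed widely within each genotype. It gave 124, 52.5 and 48.2 in WT, 72.1, 229 and 63.6 in HET and 276, 235 and 52.3 in KO. KO replicates 1 and 2 and HET replicate 2 were high, and KO replicate 3 lay in the range of WT. The KO vs WT value of 1.13 (SE 0.61) did not pass (limma adjusted p = 0.271), and without KO replicate 3 it was 1.87 (limma adjusted p = 0.0361).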
